A study of Mus musculus with 10 samples.

Results

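Keratinocyte growth factor (KGF) given alone was compared with untreated control cultures on days 17 and 24 of the differentiation of mouse embryonic stem cells. The comparison rests on 4 of the 10 arrays of the series, namely the KGF cultures of days 17 and 24 and the control cultures of the same days, none of which received the additive called DCI. Each condition was measured on 1 Affymetrix expression array, so the pair of days serves as the replication and every difference is taken between a KGF culture and the control culture of its own day. The 4 groups used are KGF at day 17, KGF at day 24, control at day 17 and control at day 24, and all cells are C57BL/6 mouse embryonic stem cells (mESCs in the labels). The remaining arrays hold a KGF and a control culture of day 8, and cultures with DCI, with and without KGF, of days 17 and 24. DCI is not spelled out in the sample labels, and the series title speaks of dexamethasone and elevated cAMP, directed at alveolar epithelial type II cells. The labels used here give neither the dose of KGF nor the days on which it was added, and do not say whether the cultures of the 2 days came from 1 differentiation run. The p-values of the KGF test weigh the mean difference against how unequal it was on the 2 days. The arrays with DCI share in that estimate of the spread. No condition has a replicate array, so the variation between replicate cultures was not measured.

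KGF, also called fibroblast growth factor 7, is secreted by mesenchymal cells and binds the IIIb splice form of FGF receptor 2, which epithelial cells carry. The receptor signals through the ERK cascade, whose own products of the Sprouty, Dusp and Etv families feed back on it. In the lung KGF is known as a growth and differentiation factor for the epithelium of the airways and alveoli.

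The values are log2 expression levels, so a difference of 1 is a 2-fold change. Of 45101 probe sets, 34945 were annotated with a single gene symbol, and the probe set with the highest mean stood for each of 18193 genes. The 4 arrays were alike in their RNA controls, with the 3′ minus 5′ log2 level of Actb between 0.48 and 0.52 and that of Gapdh between -0.01 and 0.08. The day 8 control array stood apart with 1.05 for Actb and 4.80 for the spiked dap transcript, against 1.50 to 1.82 for dap on the 4 arrays. The 20 pluripotency genes, which would mark undifferentiated cells, had median levels of 5.48 and 5.07 in KGF cultures of days 17 and 24. In control cultures the medians were 5.15 and 5.02. Some members rose from day 17 to day 24 in control cultures, such as Lin28a from 4.79 to 5.01. Pou5f1 (Oct4) stood at 6.00 and 3.97 in KGF cultures of days 17 and 24 and at 5.34 and 3.93 in control cultures, against 5.79 (KGF) and 5.60 (control) at day 8.

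KGF cultures differed from control cultures in a small set of genes, nearly all of them higher with KGF. Limma's moderated test called 17 of 18193 genes (0.0934%) at an adjusted p under 0.05, of which 16 were higher with KGF (0.0879%) and 1 was lower (0.0055%). Of those 16, 7 were in the list of airway secretory genes and 2 in the list of motile cilium genes. These lists hold 31 and 45 of the 18193 genes, and all lists were chosen with earlier results of these data known. All 17 moved in the same direction on both days, which the test favours because it takes a difference that is unequal on the 2 days as spread. The 16 genes that rose had mean log2 differences between 0.69 and 4.17, with a median of 1.32, while the median over all genes was 0.0042. Without adjustment 1264 genes had p under 0.05, and 53 had an adjusted p under 0.10, 50 of them higher with KGF. The arrays measure RNA of the whole culture, in which more cells of a type and more RNA per cell cannot be told apart. The count depended on the arrays and terms of the model: 13 genes passed with the 4 arrays alone, 65 with KGF pooled over DCI, and 1 each when the trend of the spread with expression level, or the day term, was left out.

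**Figure D1:**
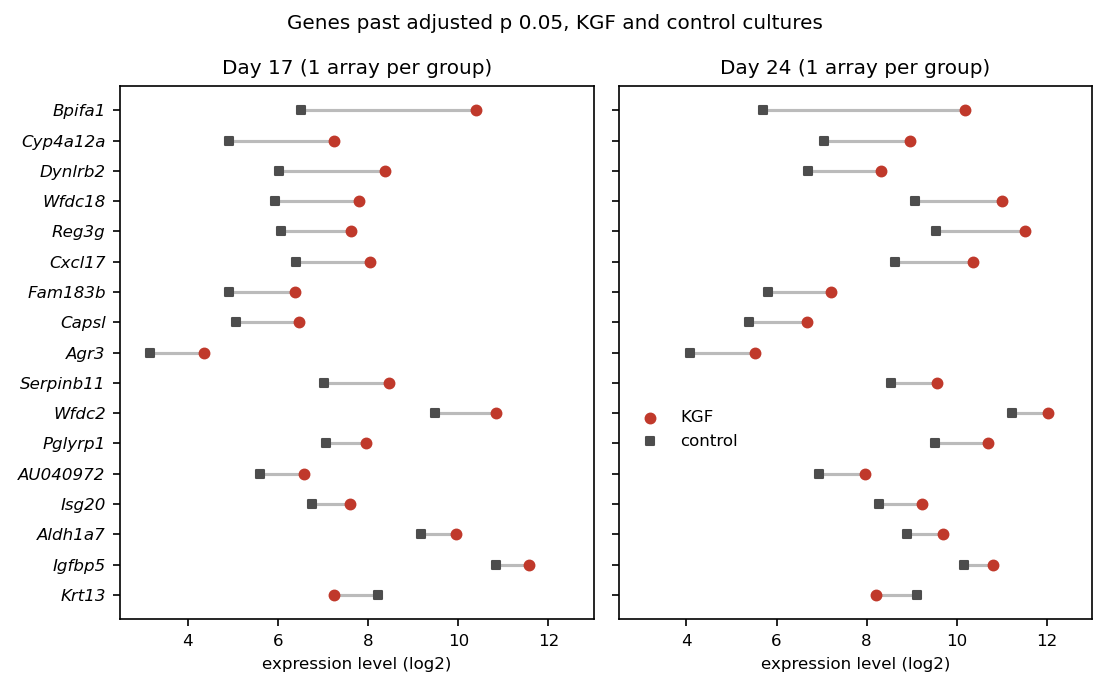
Log2 level of each gene past an adjusted p of 0.05 at day 17 and day 24, with KGF cultures as circles, control cultures as squares and 1 array per point. The 16 genes that rose lie to the right in KGF cultures in both panels, by 3.87 and 4.48 for Bpifa1, and Krt13 lies to the left by 0.98 and 0.91.

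Bpifa1, a secreted lipid-binding defence protein of the upper airway epithelium, had the largest rise. It stood at 10.38 and 10.17 in KGF cultures of days 17 and 24, against 6.51 and 5.70 in control cultures. The mean log2 difference was 4.17 ± 0.15 (SE), an 18.1-fold rise, with limma's adjusted p = 2.92e-05. At day 8 Bpifa1 stood at 3.38 with KGF and 3.05 in the control.

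Among the other secreted products, Wfdc18, a protein with a whey acidic protein core, stood at 7.79 and 10.99 with KGF on days 17 and 24, against 5.94 and 9.08 in control cultures. Its mean log2 difference was 1.88 ± 0.09 (limma, adjusted p = 1.41e-04). Its relative Wfdc2, found in airway secretions, stood at 10.83 and 12.03 with KGF, against 9.48 and 11.23 in controls. The mean log2 difference of Wfdc2 was 1.08 ± 0.12 (limma, adjusted p = 0.025). For both genes the day 17 KGF culture lay below the day 24 KGF culture, and each lay above the control of its day. Cxcl17, a chemokine of mucosal surfaces, stood at 8.04 and 10.36 with KGF, against 6.41 and 8.64 in controls. Cxcl17 thus rose by 1.68 ± 0.09 on the log2 scale (limma, adjusted p = 3.45e-04).

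Reg3g, Pglyrp1, Isg20 and Serpinb11 were among the rises as well. Reg3g, a lectin that kills Gram-positive bacteria, stood at 7.61 and 11.52 with KGF on days 17 and 24, against 6.07 and 9.53 in controls. Its mean log2 difference was 1.76 ± 0.11 (limma, adjusted p = 5.20e-04). Its paralogue Reg3b went the other way at day 17, at 7.24 and 10.49 with KGF against 8.01 and 10.31 in controls, and did not pass. Pglyrp1, which binds bacterial peptidoglycan, stood at 7.96 and 10.70 with KGF, against 7.06 and 9.52 in controls, a mean difference of 1.04 (limma, adjusted p = 0.0448). Isg20, an interferon-inducible exonuclease, rose by 0.90 (limma, adjusted p = 0.00982) and Serpinb11, a member of the serpin protease inhibitor family, by 1.23 (limma, adjusted p = 0.00841). Of 19 mucosal defence and acute phase genes, Bpifa1 and Reg3g passed, and the median mean difference of the list was 0.25. The acute phase protein Saa3 stood at 12.77 and 13.38 with KGF, against 13.02 and 13.48 in controls. The interferon response list held no gene that passed, and its median mean difference was -0.12 over 19 genes.

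The enzymes Cyp4a12a and Aldh1a7 also rose. Cyp4a12a, a fatty acid hydroxylase of the cytochrome P450 family, stood at 7.25 and 8.97 with KGF on days 17 and 24, against 4.91 and 7.06 in controls. Its mean log2 difference was 2.13 ± 0.22 (limma, adjusted p = 0.016). Aldh1a7, an aldehyde dehydrogenase, stood at 9.94 and 9.70 with KGF, against 9.17 and 8.89 in controls. The mean difference of Aldh1a7 was 0.79 ± 0.07 (limma, adjusted p = 0.00848). Cyp2f2, the club cell cytochrome P450 known for activating naphthalene, stood at 11.51 and 11.15 with KGF, against 9.92 and 9.81 in controls. Its difference of 1.46 fell just outside the threshold (limma, adjusted p = 0.0526).

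The airway secretory list of 31 genes, all measured, held 7 that rose and none that fell. The members that passed were Bpifa1, Wfdc18, Reg3g, Cxcl17, Agr3, Wfdc2 and Aldh1a7. Of the list, 18 members (58.1%) were higher with KGF on both days, against 27.7% of all genes, and 2 were lower on both days. The list's median log2 difference was 0.49 at day 17 and 0.67 at day 24, where the medians over all genes were 0.0017 and 0.017. Scgb1a1 and Muc5b differed mainly at day 24 and did not pass. Scgb1a1, the club cell secretory protein, stood at 4.42 and 8.34 with KGF, against 3.83 and 5.95 in controls (limma, adjusted p = 0.349). The airway mucin Muc5b had 5.33 and 8.70 with KGF, against 5.47 and 6.59 in controls. Cxcl15, the lung chemokine known as lungkine in mouse, was more than 2-fold higher on both days without passing. It had 6.96 and 8.32 with KGF, against 5.84 and 5.93 in controls (limma, adjusted p = 0.0542). The basal cell keratin Krt14 was not higher with KGF on either day, with differences of -0.03 and -0.69. Bpifb1, a relative of Bpifa1, was also lower with KGF on both days, by 0.34 and 0.57, and did not pass. Krt15 and Krt5, the other basal cell keratins of the list, were higher with KGF at day 17, by 0.84 and 0.42. At day 24 they differed by 0.01 and -0.19, and neither passed. The epithelial transcription factor Trp63, which is not in this list, differed by 1.06 at day 17 and 0.26 at day 24 and did not pass. Muc5b, Krt14, Krt15, Krt5 and Bpifb1 are named here after their values were seen.

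Of the 16 genes that rose, 4 more were outside the rule for naming and are named after their values were seen. Igfbp5, which binds insulin-like growth factors, stood at 11.57 and 10.80 with KGF, against 10.83 and 10.15 in controls (limma, adjusted p = 0.00722). A dimmer probe set of Igfbp5 gave the opposite sign, with a mean difference of -0.22. Agr3, a protein disulfide isomerase of secretory and ciliated epithelium, rose by 1.31 (limma, adjusted p = 0.0347), and Capsl rose by 1.34 (limma, adjusted p = 0.049). Both had levels below the median of all values, 6.67, on all 4 arrays. The expressed sequence AU040972 rose by 1.00 (limma, adjusted p = 0.0347).

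Genes of the motile cilium, the beating organelle of multiciliated airway cells, included 2 that rose. The list is built on the axoneme's dynein motors, radial spokes and tektins, and on the regulators Foxj1, Myb, Ccno and the Rfx factors, which bind the X-box in promoters of cilium genes. List members on 1 chromosome were left out of the choice of promoters to show. The stretches below come from the 5 other members with the largest mean differences that carry the X-box half-site GTTGCC upstream of the start. All 5 genes were higher with KGF on both days, which the choice by mean difference favours. Dynlrb2 and Fam183b passed the test, and Ccdc153, Enkur and Lrrc23 did not (limma, adjusted p = 0.1003, 0.139 and 0.669). Capitals mark the half-site on the strand printed.
Dynlrb2, chr8:116504937-116504996, plus strand: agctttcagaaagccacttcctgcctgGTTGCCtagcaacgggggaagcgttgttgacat
Ccdc153, chr9:44240498-44240557, plus strand: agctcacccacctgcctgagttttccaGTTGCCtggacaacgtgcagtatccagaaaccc
Fam183b, chr11:58801961-58802003, minus strand: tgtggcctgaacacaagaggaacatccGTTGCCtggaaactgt
Enkur, chr2:21205367-21205426, minus strand: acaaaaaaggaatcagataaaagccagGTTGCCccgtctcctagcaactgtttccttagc
Lrrc23, chr6:124779734-124779793, minus strand: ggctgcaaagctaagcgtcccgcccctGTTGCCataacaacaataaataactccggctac
Sequences and coordinates are from RefSeq (GRCm38.p6), and the windows searched ran from 250 bases before to 50 bases after each start, on both strands. The half-site was present in 22 of 40 cilium genes with a promoter sequence (55.0%), in 2 of 22 airway secretory genes (9.09%) and in 14.1% of 27025 genes. Of 9 letter patterns searched, 5 were forms of the X-box, and GTTGCC was chosen for display after the counts were seen. The 4 longer X-box forms, of 9, 10, 13 and 14 letters, were in 0, 4, 14 and 2 of the 40 cilium genes and in 0.877%, 2.32%, 3.8% and 0.618% of all genes. Of the patterns not related to the X-box, the forkhead-type TGTTTAC was in 2 of the 40 (4.05% of all genes) and TGTTTNC in 14 (22.8%). The Ets-type AGGAAG was in 14 (38.4%), and a palindrome of 10 letters was in 0 (0.0111%). Forms of 1 motif overlap one another, and a match describes letters in a window and not a bound site.

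Dynlrb2, a dynein light chain, stood at 8.36 and 8.32 in KGF cultures of days 17 and 24, against 6.02 and 6.70 in control cultures. Its mean log2 difference was 1.99 ± 0.20 (limma, adjusted p = 0.0148). Fam183b, a protein of the ciliary axoneme, stood at 6.37 and 7.21 with KGF, against 4.92 and 5.82 in controls. Fam183b rose by 1.42 ± 0.17 (limma, adjusted p = 0.0308). These were the 2 genes of 45 measured in the list that passed. On both days 31 members (68.9%) were higher with KGF, against 27.7% of all genes, and 2 were lower. The median log2 difference was 0.59 at day 17 and 0.29 at day 24, and 15 members at day 17 and 7 at day 24 were at least 2-fold higher, against 0.742% and 0.291% of all genes.

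Several further cilium genes were higher with KGF on both days without passing the test. Meig1, known for its role in sperm development, stood at 6.45 and 5.88 with KGF, against 4.15 and 4.39 in controls (limma, adjusted p = 0.0529). Pifo, the ciliary protein pitchfork, stood at 7.56 and 7.18 with KGF, against 5.66 and 6.00 in controls (limma, adjusted p = 0.0619). Foxj1, the master regulator of motile ciliogenesis, stood at 6.64 and 7.14 with KGF, against 5.81 and 5.87 in controls, a difference of 1.05 ± 0.20 (limma, adjusted p = 0.153). Myb, which acts early in multiciliation, had 7.57 and 5.15 with KGF, against 5.29 and 4.45 in controls. The 2 other probe sets of Myb were also higher with KGF on both days. The outer dynein arm genes had mean differences nearer to 0, and are named after their values were seen. Dnah5 had mean differences of 0.10, Dnah9 of 0.25 and Dnah11 of 0.04, and the intermediate chains Dnaic1 and Dnaic2 had -0.03 and -0.25. Each of them lay below the median of all values, 6.67, on all 4 arrays, so little can be read from differences near 0. Of the 45 cilium genes, 16 reached that median on at least 1 of the 4 arrays.

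**Figure D2:**
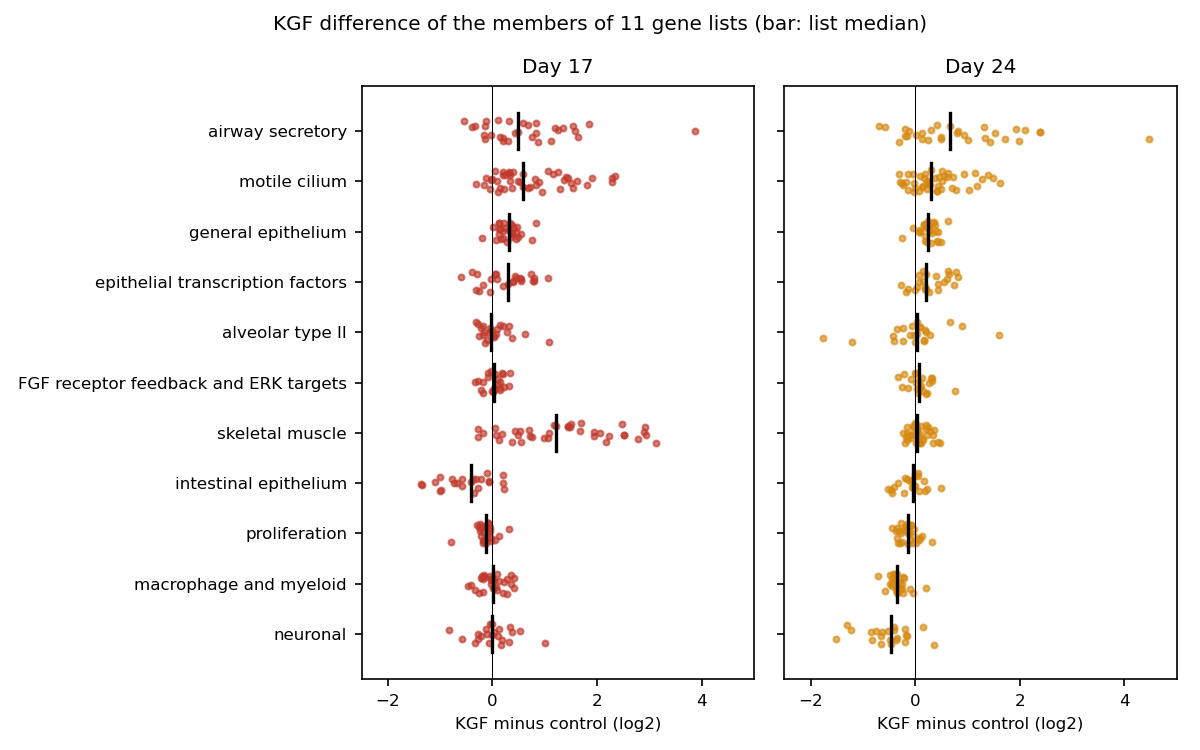
KGF minus control log2 difference of each measured member of 11 gene lists at day 17 and day 24, with a bar at each list's median and 1 array per group and day. The airway secretory and motile cilium medians lie at 0.49 and 0.59 at day 17 and at 0.67 and 0.29 at day 24, while the skeletal muscle median is 1.22 at day 17 and 0.04 at day 24.

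General epithelial genes were higher with KGF by small amounts. Of 29 measured members, 26 (89.7%) were higher with KGF on both days and 0 were lower on both days, against 27.7% and 23.2% of all genes, and none passed the test. The median mean difference was 0.27. Cdh1 (E-cadherin), the adhesion molecule of epithelial junctions, stood at 10.57 and 10.90 with KGF, against 10.16 and 10.57 in controls, a difference of 0.37 ± 0.06 (limma, adjusted p = 0.0922). Epcam had 10.85 and 11.11 with KGF, against 10.47 and 10.91 in controls (limma, adjusted p = 0.221). Esrp1, the epithelial splicing regulator that favours the IIIb form of FGF receptor 2, had 8.43 and 7.88 with KGF, against 7.67 and 7.44 in controls (limma, adjusted p = 0.124). Krt7 was an exception, at 10.02 and 10.34 with KGF, against 10.02 and 10.59 in controls.

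Of 25 epithelial transcription factors measured, 14 (56%) were higher with KGF on both days, against 27.7% of all genes, 1 was lower on both days, and none passed. Ehf, an Ets factor of secretory epithelium, stood at 8.35 and 8.82 with KGF, against 7.56 and 8.03 in controls (limma, adjusted p = 0.0526). Klf5 stood at 9.67 and 10.28 with KGF, against 9.13 and 9.64 in controls (limma, adjusted p = 0.0526). Tfcp2l1 and Grhl2 had differences of 0.81 and 0.68 (limma, adjusted p = 0.0567 and 0.0619). The 3 dimmer probe sets of Grhl2 gave mean differences of 0.01, -0.24 and 0.15, so its value rests on 1 probe set. Foxa2, an endodermal forkhead factor, differed by 0.21 and 0.74 on days 17 and 24, and Sox2 stood at 8.71 and 8.63 with KGF, against 8.18 and 8.08 in controls. Nkx2-1, the factor that marks lung and thyroid endoderm, stood at 4.77 and 4.57 with KGF, against 4.48 and 4.83 in controls, a difference of 0.01 ± 0.20 (SE).

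**Figure D3:**
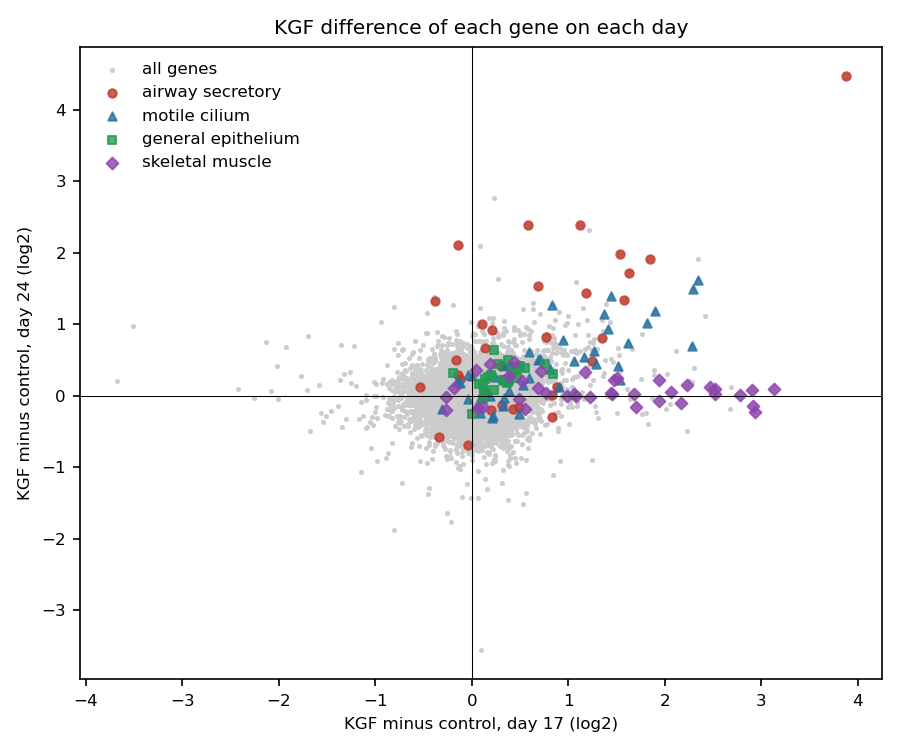
KGF minus control log2 difference of each of 18193 genes at day 17 (x axis) and day 24 (y axis), with 4 gene lists marked. Bpifa1 lies alone at the upper right, most general epithelial genes lie close to the origin with both differences above 0, and skeletal muscle genes spread along the x axis with day 24 differences near 0.

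Alveolar type II genes as a list did not lean one way. Of 23 measured, 7 were higher on both days with KGF, 7 were lower on both days, against 27.7% and 23.2% of all genes, and none passed. Sftpc, the surfactant protein that is specific to alveolar type II cells, stood at 5.46 and 6.89 with KGF, against 4.38 and 5.29 in controls. The difference of 1.34 ± 0.28 did not pass (limma, adjusted p = 0.193), and the dimmer probe set of Sftpc gave 0.01. Sftpd, a collectin also made in other mucosal epithelia, stood at 7.87 and 11.19 with KGF, against 7.25 and 10.29 in controls (limma, adjusted p = 0.164). Sftpa1, Sftpb and the lamellar body transporter Abca3 had mean differences of 0.15, -0.06 and 0.02. Scd1, a fatty acid desaturase, stood at 7.30 and 7.48 with KGF, against 7.51 and 9.24 in controls, so the gap lay at day 24. The dimmer probe set of Scd1 gave differences of 0.52 at day 17 and -0.62 at day 24. Of 17 alveolar type I genes none passed, and 7 were higher on both days. The water channel Aqp5, which airway and gland epithelia also express, stood at 7.27 and 8.26 with KGF, against 5.97 and 7.60 in controls, a difference of 0.98 (limma, adjusted p = 0.125).

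The receptor pathway of KGF itself showed little difference. Fgfr2 stood at 8.64 and 8.30 with KGF, against 8.59 and 8.22 in controls, a difference of 0.07 ± 0.08 (SE). The array does not separate its splice forms here. The endogenous Fgf7 transcript stood at 4.78 and 6.13 with KGF, against 3.97 and 6.17 in controls. Of 24 ligands and receptors, 7 were higher on both days, 7 were lower on both days, and none passed. Of 24 feedback genes and ERK targets, 12 were higher on both days, 3 were lower on both days, against 27.7% and 23.2% of all genes, and none passed, with a median mean difference of 0.06. The phosphatase Dusp6 stood at 10.08 and 10.28 with KGF, against 10.07 and 10.36 in controls. Spry2 and Spry4, inhibitors of receptor signalling, had mean differences of -0.02 and -0.16, and Etv5 had 0.02. Spry1 was higher on both days, at 8.20 and 8.11 with KGF against 7.86 and 7.85 in controls (limma, adjusted p = 0.481). Among 13 EGF family genes none passed. The receptor Erbb3 stood at 8.30 and 8.38 with KGF, against 7.73 and 8.10 in controls (limma, adjusted p = 0.354).

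Proliferation genes were slightly lower with KGF. Of 29 measured, 21 (72.4%) were lower on both days, against 23.2% of all genes, 0 were higher on both days, and none passed. The median mean difference was -0.145, against 0.0042 over all genes. Mki67, which encodes the Ki-67 antigen of cycling cells, stood at 9.88 and 7.92 with KGF, against 10.03 and 8.30 in controls (limma, adjusted p = 0.545). Hypoxia and glycolysis genes were higher on both days in 15 of 18 members, against 27.7% of all genes, with a median mean difference of 0.20 and none that passed. P4ha2, a collagen prolyl hydroxylase subunit, had the largest of these, with 9.08 and 10.17 with KGF against 8.73 and 9.69 in controls (limma, adjusted p = 0.138).

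Krt13, a keratin of stratified non-cornified epithelium, was the 1 gene that fell. It stood at 7.25 and 8.21 with KGF, against 8.23 and 9.12 in controls, a difference of -0.95 ± 0.11 (limma, adjusted p = 0.023). Its 2 dimmer probe sets gave mean differences of -0.95 and -1.29, and at day 8 the difference was -0.87. Cps1, the urea cycle enzyme of liver and intestine, was the 1 gene at least 2-fold lower on both days. Cps1 stood at 5.24 and 4.10 with KGF, against 6.40 and 5.16 in controls (limma, adjusted p = 0.0526), with all 4 levels below the median of all values, and is named after its values were seen. Of 28 keratinocyte genes, Krt13 was the 1 that passed. At day 17 alone 5 of them, Lor, Krtdap, Krt1, Krt6b and Krt10, were at least 2-fold lower with KGF, against 0.236% of all genes. At day 24 none was. In the same list 1 member, Trp63, was at least 2-fold higher at day 17, against 0.742% of all genes. Lor (loricrin) stood at 5.71 and 7.44 with KGF on days 17 and 24, against 7.96 and 7.47 in controls.

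Differences within a single day were larger in number and can be given only as values, with 1 array per group. At day 17, 135 genes (0.742%) were at least 2-fold higher and 43 (0.236%) at least 2-fold lower with KGF. At day 24, 53 (0.291%) were at least 2-fold higher and 23 (0.126%) at least 2-fold lower. At day 8 the counts were 31 (0.17%) higher and 14 (0.077%) lower. The overlap was 23 genes that were higher on both days, which is 17% of the day 17 genes and 43.4% of those of day 24, and 1 gene, Cps1, lower on both. Of those 23 genes, 13 were in the airway secretory or motile cilium lists, and 10 passed the test. Of the 135 genes of day 17, 104 were also higher at day 24, with a median day 24 difference of 0.29. Of the 53 genes of day 24, 45 were also higher at day 17, with a median day 17 difference of 0.86.

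Skeletal muscle genes made up the largest listed share of the day 17 differences. Of the 135 genes, 23 were skeletal muscle genes, 15 were cilium genes and 9 were airway secretory genes, while of the 53 genes of day 24 the counts were 0, 7 and 12. Neb (nebulin), a giant protein of the thin filament, stood at 6.98 and 7.06 with KGF on days 17 and 24, against 3.86 and 6.97 in controls. Myog, the myogenic regulator myogenin, stood at 9.76 and 9.82 with KGF, against 7.24 and 9.72 in controls. The list's median level over 39 genes was 8.01 and 8.25 with KGF, against 6.44 and 8.22 in controls. The day 17 control was thus the low array of the 4. The day 17 cultures with DCI had medians of 6.95 with KGF and 6.90 without. Taken gene by gene, the median KGF difference of the list with DCI was 0.31 at day 17 and 0.61 at day 24. None of the 39 passed the test, which takes a difference that is unequal on the 2 days as spread. Muscle markers therefore moved with KGF at day 17 beside the airway and cilium genes. Without DCI the muscle, airway and cilium median differences were 1.22, 0.49 and 0.59 at day 17. At day 24 they were 0.04, 0.67 and 0.29. The part of the muscle markers in the airway and cilium results was not tested.

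Lists of other lineages differed as well, with no gene that passed. Intestinal epithelial genes were lower with KGF at day 17, where 3 of 23 were higher, against 50.4% of all genes, with medians of -0.40 (day 17) and -0.04 (day 24). Fabp2, an enterocyte fatty acid binding protein, stood at 5.07 and 5.00 with KGF, against 6.41 and 5.44 in controls. Visceral endoderm and liver genes had medians of -0.33 (day 17) and -0.13 (day 24), with 12 of 23 lower on both days, against 23.2% of all genes. Apoa4, an apolipoprotein, stood at 7.01 and 9.59 with KGF, against 8.11 and 10.04 in controls. The gastric peptides Gkn1 and Gkn2 were lower with KGF at day 17 and higher at day 24, with differences of -1.70 and 0.83 for Gkn1 and -2.13 and 0.75 for Gkn2. The embryonic globin Hbb-bh1 stood at 4.73 and 4.54 with KGF, against 6.82 and 4.48 in controls. Pluripotency genes were higher with KGF at day 17 in 20 of 20 members, against 50.4% of all genes, with a median of 0.33. At day 24, 7 of the 20 were higher, against 53.9% of all genes, with a median of -0.07. Nanog stood at 6.55 and 4.48 with KGF, against 5.70 and 4.59 in controls.

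At day 24 macrophage and neuronal genes were lower with KGF. Of 30 macrophage and myeloid genes, 1 was higher at day 24, against 53.9% of all genes, and the median difference was -0.36. At day 17 the list had 15 higher, against 50.4% of all genes, and a median of 0.01. Mpeg1, a pore-forming protein of macrophages, stood at 10.17 and 9.61 with KGF, against 10.34 and 10.20 in controls (limma, adjusted p = 0.485). The list's median level was 9.60 and 9.41 with KGF, against 9.69 and 9.89 in controls, so macrophage transcripts were present in all 4 cultures. Ppbp, the platelet and monocyte chemokine precursor, stood at 6.28 and 8.67 with KGF, against 6.73 and 10.04 in controls (limma, adjusted p = 0.151). Of 22 neuronal genes, 2 were higher with KGF at day 24, against 53.9% of all genes, and the median was -0.47, with -0.0042 at day 17. Chgb (chromogranin B), a protein of secretory granules, stood at 6.30 and 5.64 with KGF, against 6.34 and 6.87 in controls. Housekeeping genes had a median mean difference of -0.02 over 10 members.

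The 16 genes that rose were followed in the arrays that the comparison does not use for its difference. The arrays with DCI share the estimate of the spread, so genes with similar KGF differences on their 2 days passed more easily. In cultures with DCI, which have their own controls, all 16 were higher with KGF on days 17 and 24, against 26.6% of all genes. Their differences there ran from 0.48 to 3.42, with a median of 1.20. Bpifa1 had differences of 2.94 and 3.42 with DCI, against 3.87 and 4.48 without. A test of whether the KGF difference depended on DCI, added after the data were seen, called 0 genes by limma. The smallest adjusted p was 0.999, and 457 of 18193 genes had an unadjusted p under 0.05. With 2 residual degrees of freedom, a lack of calls does not show that the KGF difference was the same with DCI. At day 8, 7 of the 16 were higher with KGF, against 43.9% of all genes, with a median of -0.08 and a range from -0.61 to 0.83. Dynlrb2 stood at 2.81 with KGF and 3.40 in the control at day 8, and the day 8 control is the array that stood apart in its RNA controls. Krt13 differed by -0.16 and -0.57 with DCI on days 17 and 24, where 27.1% of all genes were lower on both days.

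**Figure D4:**
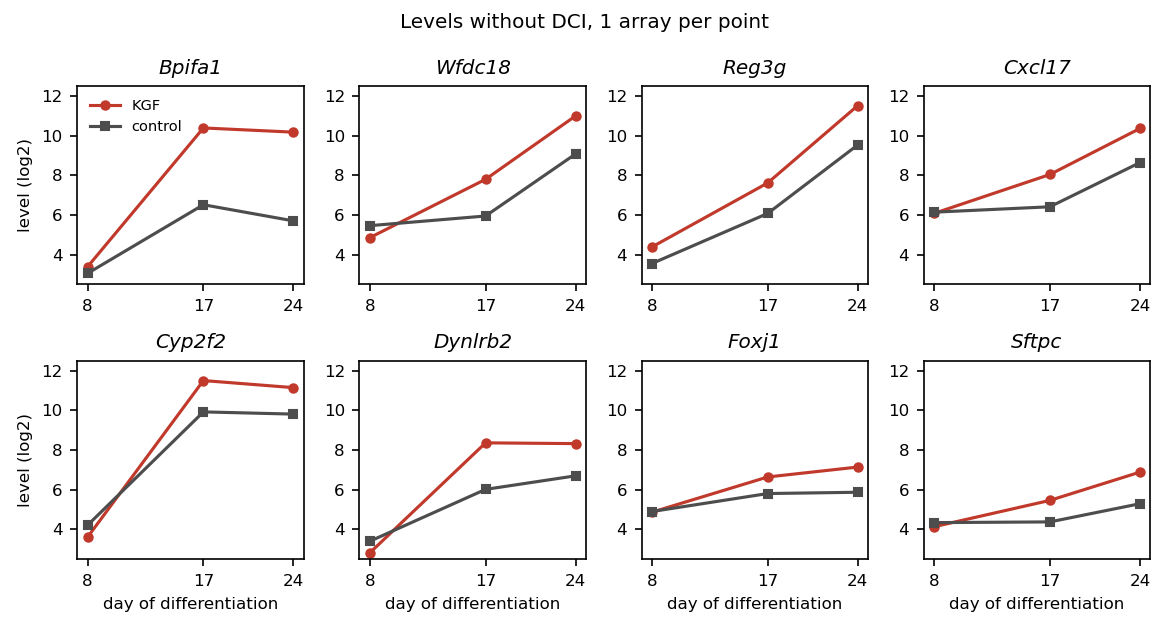
Log2 level of 8 genes on days 8, 17 and 24 without DCI, with KGF cultures as circles, control cultures as squares and 1 array per point. KGF and control lie within 0.83 of each other at day 8 for Reg3g and closer for Bpifa1, and on both later days the KGF culture is the higher one in all 8 panels.

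Whether the KGF difference changed between day 17 and day 24 was tested with KGF pooled over the cultures with and without DCI. Limma called 9 genes (0.0495%) at an adjusted p under 0.05, with a KGF difference that was higher at day 24 in 2 (0.011%) and lower in 7 (0.0385%), and 1675 at an unadjusted p under 0.05. Gp2, a glycoprotein that M cells of mucosal epithelium and the pancreas express, stood at 3.71 and 6.74 with KGF on days 17 and 24, against 3.48 and 3.97 in controls. Its KGF difference was 0.23 at day 17 and 2.77 at day 24 without DCI, and 0.85 and 2.69 with DCI (limma, adjusted p = 0.0177 for the change). Krt15, a keratin of basal cells, stood at 11.41 and 10.29 with KGF, against 10.57 and 10.28 in controls, so its difference was 0.84 at day 17 and 0.01 at day 24. Dppa5a, a gene of pluripotent cells, had a KGF difference of 0.60 at day 17 and -0.62 at day 24. Gad1, which makes the transmitter GABA, had 0.16 and -1.30, while its dimmer probe set gave -0.03 and -0.38. None of the 17 genes called for KGF was among these 9. The test for KGF takes a difference that is unequal on the 2 days as spread, so an overlap was unlikely from the outset. With no mean trend in the spread, or with probe sets averaged per gene, the count was 0.

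**Figure D5:**
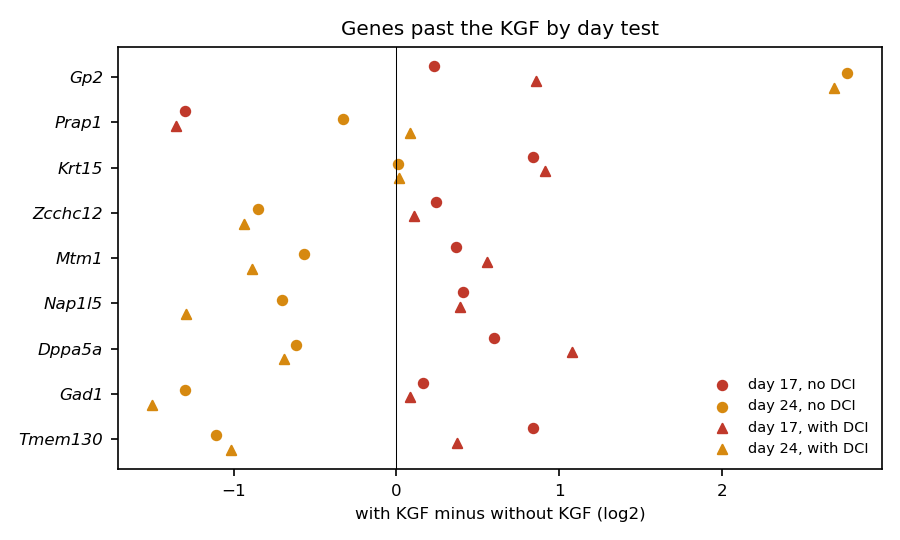
With-KGF minus without-KGF log2 difference of the 9 genes past the KGF by day test, with circles for cultures without DCI, triangles for cultures with DCI, and colours for day 17 and day 24. In each gene both day 24 points lie on the same side of both day 17 points, as for Gp2 with 2.77 and 2.69 against 0.23 and 0.85.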

How the data were processed

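The deposited series matrix holds log2 values of 10 Affymetrix mouse arrays, made by the authors with RMA per the submitters' processing notes. No version is recorded in the files or labels used here, nor whether the 10 arrays were normalised jointly. Probe sets with 1 gene symbol in the platform annotation were kept, and the brightest stood for each gene. With limma 3.58.1 in R 4.3.3, 8 arrays of days 17 and 24 were fitted with terms for day, DCI, day by DCI, KGF and KGF by DCI, leaving 2 residual degrees of freedom. The KGF term is the mean of the 2 within-day differences without DCI, and the arrays with DCI share only the estimate of the spread. Variances were moderated with a mean trend and p-values adjusted by Benjamini-Hochberg over 18193 genes. KGF by day used the same arrays with a day by KGF term in place of KGF by DCI. Precision is limited by having 1 array per condition. The scripts were tested on simulated data, where the share of false calls was above the nominal one, a limit that applies to the 17 genes called.

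The members, the 40 gene lists (860 genes, 810 measured) and the tests were chosen with earlier results of these data known. Genes are named by a rule: up to 12 largest rises and falls that passed, on both days and above the median level on at least 1 array and not named as a clone or accession, up to 4 of each list by absolute mean difference, 21 fixed genes, and up to 6 each way for KGF by day. Others are named after their values were seen. Promoter sequences are RefSeq's.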

Additional observations from a re-analysis of the deposited data

Results flagged for a closer look

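The 9 genes past the test of a change in the KGF difference between day 17 and day 24 (limma, pooled over cultures with and without DCI) differ between the 2 days under the same contrast. As day 24 minus day 17 of the log2 KGF difference, the change was 2.19 for Gp2 (adjusted p = 0.0177) and 1.21 for Prap1 (adjusted p = 0.0356), both with a higher KGF difference at day 24. It was -1.67 for Tmem130 (adjusted p = 0.0261), -1.52 for Gad1 (adjusted p = 0.0496), -1.49 for Dppa5a (adjusted p = 0.0169) and -1.40 for Nap1l5 (adjusted p = 0.0496). It was -1.19 for Mtm1 (adjusted p = 0.0177), -1.07 for Zcchc12 (adjusted p = 0.0436) and -0.86 for Krt15 (adjusted p = 0.0169). Of the other probe sets of Mtm1, 1 gave KGF differences of 0.06 and 0.34 at days 17 and 24 and the other 0.35 and -0.79.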

How the results depend on the processing

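KGF and control arrays are paired by day in the model itself, and the labels give no replicate numbers for another block. The count of genes called for KGF was 17. It was 4 with no day by DCI term, 65 with KGF pooled over DCI on 8 arrays, 1 with all 10 arrays, 1 with no day term, 1 with no mean trend and 34 with a robust prior. It was 9 with probe sets averaged per gene, 41 over single probe sets and 53 at an adjusted p under 0.10. Leaving out 1 array gave 12 to 310 genes. The highest counts came without the day 24 KGF (310) or day 24 control array (305), then without the day 17 KGF (81) or day 17 control array (80), where the estimate is 1 day's difference, and the lone arrays are assumed to vary like the others. Each of the 17 genes kept its direction in every alternative run for it. Of 303 gene-level alternatives for these 17, 200 stayed past the threshold and 103 did not. Bpifa1 passed in 17 of 18, with adjusted p up to 0.0842, while Wfdc2 passed in 6 of 18, Capsl in 6 of 17, Agr3 in 7 of 17 and AU040972 in 8 of 18. For genes not past the threshold, 135 of 2971 alternatives passed, and direction was not scored.

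For KGF by day the count was 9, against 0 with no mean trend, 0 with the mean of probe sets, 21 with a robust prior, 23 at an adjusted p under 0.10 and 4 to 132 without 1 array. Without the day 17 array with KGF and DCI it was 132, without the day 17 DCI array 128, and without either day 24 array with DCI 4, none of them among the 9. Without the day 17 KGF or control array it was 17 or 18, and without either day 24 array lacking DCI 23. At 3-fold in place of 2-fold, 47 genes were higher and 13 lower at day 17, 14 and 4 at day 24, and 1 and 0 at day 8. Without the dimmest 40% of genes the 2-fold counts were 65 and 16 at day 17, 22 and 8 at day 24, and 8 lower at day 8, where the fewer genes tested account for part of the change. The cause of the other shifts was not tested.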
